A study of Homo sapiens with 24 samples.

Results

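The genes described here encode the core proteins of the spliceosome and the heterogeneous nuclear ribonucleoproteins (hnRNPs), followed in ovarian cancer cells given the nucleoside duplex prodrug 5-FdU-ECyd. They are the rows of the counts table whose Ensembl ID belongs, in the GENCODE annotation, to a protein-coding gene with a symbol that starts with SNRP, with LSM and a digit, or with SF3A, SF3B, PRPF, U2AF or HNRNP. This rule used names alone and took 77 of 63299 rows. Of these, 73 passed the filter on low counts and were tested among 20240 genes. The other 4, HNRNPCL1, HNRNPCL2, HNRNPCL3 and HNRNPCL4, are HNRNPC-like genes, and no library held more than 11 counts of any of them.

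Introns are removed from pre-mRNA by the spliceosome, which is built anew on each intron from small nuclear ribonucleoprotein particles (snRNPs). The U1 snRNP reads the 5′ splice site, U2AF and the U2 snRNP with its SF3a and SF3b parts read the 3′ splice site and the branch site, and the U4/U6.U5 tri-snRNP then brings the proteins of the catalytic core. A ring of small Sm proteins is set around the U1, U2, U4 and U5 snRNAs and a ring of LSM proteins around U6, while hnRNPs coat nascent RNA and steer which exons are kept. Many genes of both families regulate the splicing of their own transcripts.

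RNA was taken from A2780, a platinum-sensitive ovarian cancer line, and from A2780cis, its isogenic platinum-resistant derivative, whose medium received cisplatin for single passages at intervals to maintain resistance. Both lines were grown for 6 h or 12 h either in medium with 1 µM 5-FdU-ECyd, which links 2′-deoxy-5-fluorouridine to 3′-C-ethynylcytidine, or in medium without it, which gave 8 groups of 3 libraries. Each line is 1 cell line. The study calls the libraries of a group biological replicates, but neither the labels nor its methods state whether they came from separately started cultures, so p-values measure only the spread between these libraries. Levels are given as CPM, counts scaled to a common library total with TMM factors. A change is the log2 fold change fitted by edgeR (quasi-likelihood test), and p-values were adjusted after Benjamini and Hochberg over all 20240 genes. A gene was called at an adjusted p of at most 0.05. For treatment, a rise or a fall means a higher or lower level than in untreated cells of the same time, not a change over time. Because CPM is a share of a library, fewer transcripts of a gene per cell and more of other genes cannot be told apart.

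Total counts per library lay between 11077368 and 21901406. Mitochondrially encoded genes took 6.31% to 6.54% of the counts in untreated A2780 at 12 h and 8.32% to 8.85% in treated A2780, and 5.10% to 5.43% in untreated against 8.79% to 9.94% in treated A2780cis. The part of this shift in the results was not tested. The members together took 2.03% ± 0.0299 of the counts in untreated A2780 at 12 h and 1.55% ± 0.0470 in treated A2780, against 1.88% ± 0.0325 and 1.44% ± 0.0182 in A2780cis (SD, n = 3). Of the ovarian markers checked, PAX8, WT1 and MUC16 were at or near 0 in both lines, EPCAM stayed under 2 CPM, and the lines did not overlap for the keratin KRT18 (0.718 to 3.27 CPM in A2780, 20.6 to 28.4 CPM in A2780cis) or for KRT8 (0.574 to 1.75 CPM against 3.82 to 6.80 CPM). Of the mesenchymal genes, CDH2 had a median of 39.4 CPM in A2780 and 3.92 CPM in A2780cis, and VIM had a median of 1966 CPM in A2780 and 1994 CPM in A2780cis. The leukocyte gene PTPRC and the endothelial genes PECAM1 and VWF stayed below 0.1 CPM. The other leukocyte gene checked, CD68, lay between 2.22 and 3.88 CPM in A2780 and between 5.70 and 8.38 CPM in A2780cis. The fibroblast gene COL1A2 lay between 28.0 and 60.7 CPM in A2780 and at most at 0.399 CPM in A2780cis. COL1A1 reached 16.0 CPM and DCN 12.3 CPM in A2780, against 2.99 and 1.47 CPM in A2780cis.

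At 12 h most members had lower levels in treated than in untreated cells of both lines. In A2780, 44 of the 73 tested members fell and 2 rose, where 26.1% of all genes fell and 28.6% rose, 54.8% in all. In A2780cis, 45 fell and 10 rose, against 28.9% and 31.0% of all genes and 59.9% for both. The median log2 fold change of the members was -0.36 in A2780 and -0.44 in A2780cis, while that of all tested genes was 0.02 and 0.04 and that of the 13881 tested protein-coding genes -0.03 and -0.05. Of the 73 members, 38 fell in both lines, where 18.4% of all genes did, none was called in opposite directions, where 1.69% were, and 11 were called in neither, where 24.6% were. The level was at least halved for 4 members in A2780 and for 11 in A2780cis, and for 1443 and 2233 of all 20240 genes, 7.13% and 11%. Without A2780cis treated replicate 3 only 4 members rose in A2780cis, and without A2780 untreated replicate 2 or 3 or treated replicate 1 only 1 rose in A2780. Scaling by library size alone put the median of all genes at 0.24 in A2780 and 0.15 in A2780cis. In A2780 it turned the split of all genes to 8084 rises and 3349 falls, against 5796 and 5291 with TMM, and that of the members to 11 rises and 32 falls; in A2780cis the members split into 15 rises and 39 falls.

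**Figure D1:**
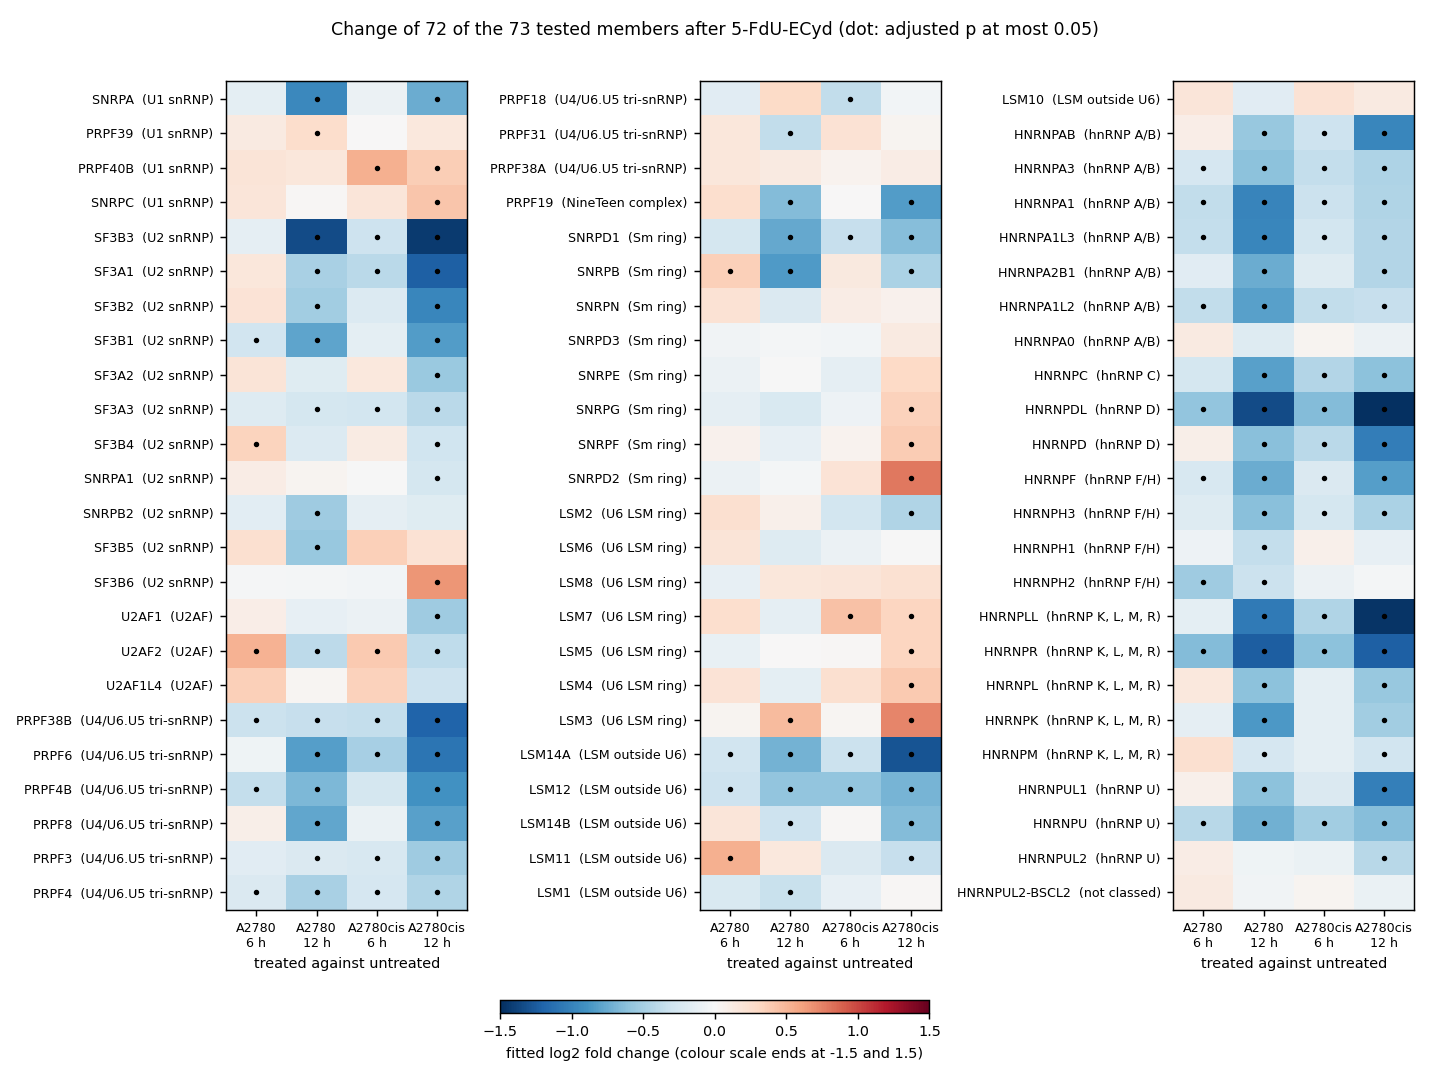
Fitted log2 fold change (colour) of 72 of the 73 tested members in the 4 treated against untreated comparisons (columns), with the class in parentheses and a dot where the adjusted p was at most 0.05. Both 12 h columns are blue for most hnRNPs, while red cells of the A2780cis 12 h column gather among the Sm and LSM proteins.

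The counts were then taken by class. Of 22 tested hnRNPs with a class, 20 fell in A2780 and 19 in A2780cis at 12 h and none rose, with medians of -0.67 and -0.49. Of the 50 snRNP, U2AF, LSM and PRPF members, 24 fell in A2780 and 26 in A2780cis, and 2 and 10 rose, with medians of -0.21 and -0.31. Whether these classes differ was not tested. By class, all 3 hnRNP C and D genes tested and all 5 genes of the K, L, M and R group fell in both lines, whereas in the 7-member U6 LSM ring 1 rose and none fell in A2780, and 4 rose and 1 fell in A2780cis.

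**Figure D2:**
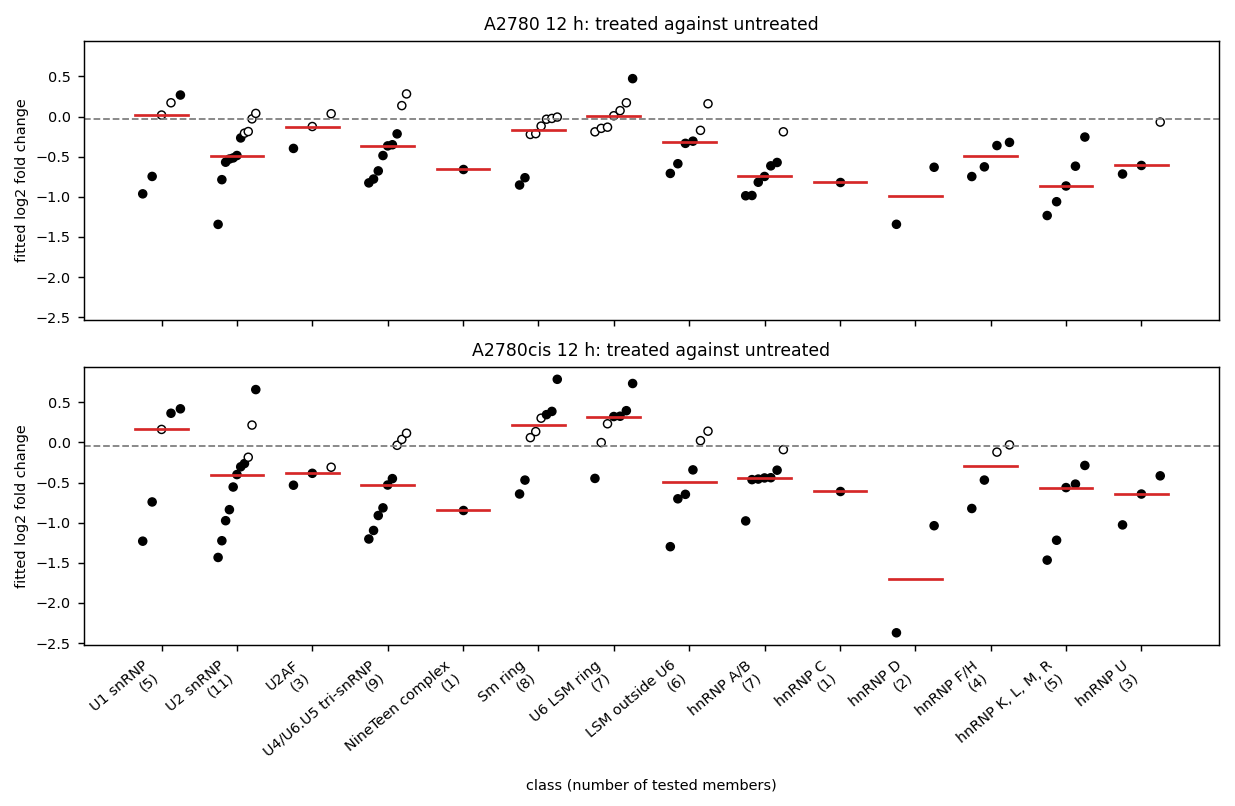
Fitted log2 fold change at 12 h (y axis) of each tested member by class (x axis, with the number of tested members), A2780 above and A2780cis below. Filled points had an adjusted p of at most 0.05, red bars are class medians, and the dashed line is the median of the tested protein-coding genes; the hnRNP D median is lowest in both lines, and the medians of the Sm and U6 LSM rings lie above the dashed line in A2780cis.

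The start regions of 4 genes are shown because they carried the large falls among hnRNPs (HNRNPDL and HNRNPR) and the rises among ring proteins (LSM3 and SNRPD2). Each run holds the 120 bases before the RefSeq start site in GRCh38.p14, at chr4:82430463-82430582 on the minus strand for HNRNPDL, chr1:23344285-23344404 on the minus strand for HNRNPR, chr3:14178697-14178816 on the plus strand for LSM3 and chr19:45692317-45692436 on the minus strand for SNRPD2. By the GENCODE span SNRPD2 begins further upstream, at chr19:45692569, so its whole run lies within that span. HNRNPR begins at chr1:23344336 by GENCODE, so part of its run lies within its span too. Capitals mark CCAAT or CCGGAAG on either strand.
HNRNPDL: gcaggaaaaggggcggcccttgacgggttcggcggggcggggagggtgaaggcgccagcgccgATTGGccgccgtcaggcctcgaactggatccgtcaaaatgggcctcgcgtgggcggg
HNRNPR: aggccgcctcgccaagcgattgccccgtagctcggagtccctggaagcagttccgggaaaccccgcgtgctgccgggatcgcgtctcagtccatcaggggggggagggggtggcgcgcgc
LSM3: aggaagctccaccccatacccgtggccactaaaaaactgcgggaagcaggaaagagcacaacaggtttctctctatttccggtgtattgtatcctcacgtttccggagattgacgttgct
SNRPD2: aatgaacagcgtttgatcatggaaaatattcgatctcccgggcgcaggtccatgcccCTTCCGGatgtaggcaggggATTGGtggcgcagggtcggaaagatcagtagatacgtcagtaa
The CCAAT box stood in that of HNRNPDL, and both CCAAT and CCGGAAG, a run bound by ETS factors, stood in that of SNRPD2. Those of HNRNPR and LSM3 held neither of these exact runs. Both did hold TTCCGG, the reverse of the shorter CCGGAA, which was not counted, so they cannot be said to lack ETS sites. Over the 250 bases before the start, 65 of the 77 members had a sequence in the table. CCAAT or its reverse ATTGG was in 32 of these and in 34.5% of 15843 protein-coding promoters, and in 16 of 23 hnRNP promoters. CCGGAAG or CTTCCGG was in 21 of the 65, in 3 of the 23 hnRNPs and in 6 of the 13 ring proteins, against 11.8% of all. TATAAA or TTTATA was in 4 of 65 against 9.34%, and the palindromic NRF1 site and the YY1 site AAGATGGC or GCCATCTT were each in 1 of 65 against 1.51% and 1.43%. None of these motifs lies within another, and a match is a run of letters, not a measured binding site.

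Among the A and B hnRNPs, which bind widely along nascent RNA, 6 of 7 fell in both lines and HNRNPA0 was not called. HNRNPA1, a frequent repressor of exons (ENSG00000135486.17, chr12:54280193-54287088, GRCh38), had 2216, 2173 and 2004 CPM in untreated and 1149.5, 1048 and 1027 CPM in treated A2780 at 12 h, and in A2780cis it had 2046, 1762 and 1735 CPM untreated and 1455, 1144 and 1441 CPM treated. The groups did not overlap in either line, and the fall was steeper in A2780 (log2 fold change -0.99, SE 0.11, adjusted p = 2.1e-08) than in A2780cis (log2 fold change -0.46, SE 0.11, adjusted p = 6.0e-04), with a tested difference between the lines of 0.53 (SE 0.15, adjusted p = 0.012). HNRNPA1L3, a retrocopy, moved with its parent, from 67.7, 63.5 and 61.6 to 34.2, 32.3 and 31.1 CPM in A2780 (-0.98) and from 65.6, 56.9 and 52.0 to 45.9, 37.3 and 45.4 CPM in A2780cis (-0.44). Its reads cannot be told apart from those of HNRNPA1 with certainty, since 41.0% of its 75-base windows occur in HNRNPA1 transcripts, as do 35.9% of those of HNRNPA1L2, and 10.3% of the reads of HNRNPA1 and its 74 annotated pseudogenes were counted at the pseudogenes.

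HNRNPA3 had 725, 679.6 and 633 CPM in untreated and 483, 434 and 414 CPM in treated A2780, and 650.0, 592 and 566 against 465, 416 and 429.7 CPM in A2780cis. Its levels did not overlap, with log2 fold changes of -0.61 (SE 0.09, adjusted p = 3.1e-06) and -0.46 (SE 0.09, adjusted p = 1.0e-04). HNRNPA3 shares 53.7% of its exonic bases with genes on the opposite strand, chiefly NFE2L2. HNRNPAB, a CArG-box and RNA binding relative, fell from 337, 355 and 357 to 255, 230.4 and 220.1 CPM in A2780, and A2780cis went from 393, 405 and 406 to 214, 185 and 212 CPM. Here the larger fall was in A2780cis (-0.98 against -0.57; difference -0.41 (SE 0.12, adjusted p = 0.015)), and this difference was not called without A2780 treated replicate 1 (adjusted p = 0.056). HNRNPC, which binds uridine tracts, went from 1305, 1287 and 1300.2 to 816, 700.1 and 705 CPM in A2780 (log2 fold change -0.81, SE 0.11, adjusted p = 1.1e-06). In A2780cis HNRNPC had 1251, 1037 and 1004 CPM untreated and 775, 608 and 773 CPM treated (log2 fold change -0.61, SE 0.11, adjusted p = 4.1e-05), again without overlap.

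The largest fall among the 73 members was that of HNRNPDL in A2780cis. The gene (ENSG00000152795.17, chr4:82422565-82430462) encodes a relative of HNRNPD (AUF1), a binder of AU-rich elements. Its levels were 399, 411 and 389 CPM in untreated and 181, 149 and 143 CPM in treated A2780, and 443, 427 and 405 CPM in untreated and 89.9, 76.4 and 79.8 CPM in treated A2780cis. All treated libraries of both lines thus lay well below every untreated one, and those of A2780cis lay lowest. The log2 fold change was -1.34 (SE 0.09, adjusted p = 6.5e-12) in A2780 and -2.37 (SE 0.10, adjusted p = 4.0e-16) in A2780cis, and the difference between the lines was -1.03 (SE 0.13, adjusted p = 3.8e-06). HNRNPD itself fell less, with -0.63 and -1.04.

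All 4 members of the F and H group, which bind G tracts, fell in A2780 and 2 of them in A2780cis. HNRNPF had 393, 396 and 386 CPM untreated and 233, 235 and 232 CPM treated in A2780, then 426, 393 and 385 and 233, 218 and 229 CPM in A2780cis. These groups did not overlap, and the log2 fold changes were -0.75 (SE 0.08, adjusted p = 9.2e-09) and -0.82 (SE 0.08, adjusted p = 1.3e-09). HNRNPH3 went from 318, 310.5 and 272 to 215, 187 and 182 CPM and from 445, 372 and 365 to 310.2, 257 and 287 CPM (-0.63 and -0.47). HNRNPH2 fell in A2780, from 107, 105 and 90.7 to 89.5, 79.0 and 73.6 CPM (log2 fold change -0.32, SE 0.10, adjusted p = 0.0062), but with library size scaling alone this was no longer called. In A2780cis HNRNPH2 had 66.6, 57.1 and 53.4 CPM untreated and 65.0, 56.0 and 52.5 CPM treated, overlapping groups with a log2 fold change of -0.03 whose sign changed with the scaling and with the library left out.

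HNRNPR and HNRNPLL led the K, L, M and R group. HNRNPR, a relative of SYNCRIP (ENSG00000125944.18, chr1:23303771-23344336), had 381, 383 and 345 CPM in untreated and 175, 148 and 149 CPM in treated A2780, and 398, 364 and 355 against 177, 157 and 146 CPM in A2780cis. Its log2 fold changes were -1.23 (SE 0.09, adjusted p = 4.5e-11) and -1.22 (SE 0.09, adjusted p = 4.0e-11), with a difference of 0.01 (SE 0.13, adjusted p = 0.97) that was not called. HNRNPLL, a relative of HNRNPL best known from lymphocytes, fell from 73.3, 68.8 and 68.6 to 38.5, 33.0 and 29.7 CPM in A2780, and A2780cis went from 77.8, 74.8 and 68.0 to 31.4, 23.9 and 24.5 CPM (-1.06 and -1.47, both groups apart). Its difference between the lines, -0.41 (SE 0.15, adjusted p = 0.054), was not called. HNRNPK, HNRNPL and HNRNPM also fell in both lines, with log2 fold changes of -0.87, -0.62 and -0.26 in A2780.

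HNRNPU, the nuclear scaffold attachment factor, had 1196, 1191 and 1105 CPM in untreated and 783, 681 and 662 CPM in treated A2780, and 1085, 1078 and 1035 against 739.5, 667 and 641 CPM in A2780cis. Its fall was -0.72 (SE 0.09, adjusted p = 3.1e-07) and -0.64 (SE 0.09, adjusted p = 1.3e-06), without overlap. HNRNPUL1 fell from 254, 278 and 306 to 179, 185 and 186 CPM in A2780, and A2780cis went from 216, 243 and 251 to 119, 122 and 107 CPM, with log2 fold changes of -0.61 and -1.03. HNRNPUL2 fell in A2780cis (-0.42) and had -0.07 in A2780, and its read-through transcript HNRNPUL2-BSCL2, left without a class, was called in no treatment comparison. The 2 annotations share 44.3% of the exonic bases of HNRNPUL2, so their reads cannot be fully told apart.

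In the U1 snRNP the members moved both ways. SNRPA, the U1A protein on a stem loop of U1 snRNA, fell from 74.3, 84.5 and 89.6 to 40.6, 45.1 and 41.6 CPM and from 74.7, 83.9 and 87.1 to 42.3, 50.2 and 54.3 CPM (-0.96 and -0.74). Treated and untreated libraries of SNRPA did not overlap in either line. SNRPC, the U1C protein that helps hold the 5′ splice site, rose in A2780cis (0.42) and had 0.02 in A2780, PRPF40B rose in A2780cis (0.36), and PRPF39 rose in A2780 (0.27). In untreated A2780, PRPF39 went from 155, 150.35 and 138 CPM at 6 h to 118, 107 and 88.5 CPM at 12 h. Treated A2780 had 133, 124 and 121 CPM of PRPF39 at 12 h. Genes on the opposite strand share 48.7% of the exonic bases of PRPF40B and 13.3% of those of PRPF39.

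SF3B3 stood out in the U2 snRNP, where 7 of 11 members fell in A2780 and 8 in A2780cis. This SF3b subunit (ENSG00000189091.12, chr16:70523791-70577670) had 366, 383 and 348 CPM in untreated and 155, 144 and 133 CPM in treated A2780, then 381, 389.9 and 384 CPM in untreated and 138, 138 and 152 CPM in treated A2780cis. The treated levels of both lines lay close together and far from the untreated ones (log2 fold change -1.34, SE 0.10, adjusted p = 1.6e-11; log2 fold change -1.43, SE 0.10, adjusted p = 4.0e-12). SF3B1, the subunit that clamps the branch site helix, fell from 679, 645 and 548 to 392, 352 and 341 CPM in A2780, and A2780cis went from 549, 476 and 445 to 291, 254 and 278 CPM (-0.79 and -0.84). SF3A1, of the SF3a part, had 133, 148 and 171 against 103, 115 and 104 CPM in A2780 (-0.49) and 128, 157 and 161 against 68.6, 65.6 and 56.7 CPM in A2780cis (-1.22). Its fall was deeper in A2780cis, with a difference of -0.74 (SE 0.19, adjusted p = 0.0064). SF3B6, the small p14 subunit near the branch site adenosine, went the other way in A2780cis (0.66, adjusted p = 1.6e-04) and had -0.03 in A2780.

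Of the U2AF subunits that read the 3′ splice site, U2AF2, which binds the polypyrimidine tract, had 246, 259 and 282 CPM in untreated and 176, 210.3 and 211 CPM in treated A2780 at 12 h, and 234, 283 and 304 against 199.9, 225 and 203 CPM in A2780cis. Its fall was called in both lines (-0.40 (SE 0.14, adjusted p = 0.019) and -0.38 (SE 0.14, adjusted p = 0.021)). It was not called without A2780 untreated replicate 3 or treated replicate 1 (largest adjusted p = 0.076), nor without A2780cis untreated replicate 2 or 3 (0.092). U2AF1, which reads the AG, went from 102, 99.0 and 97.9 to 98.5, 89.4 and 86.7 CPM in A2780, where it was not called (-0.12), and from 104, 96.8 and 94.3 to 66.9, 62.2 and 74.9 CPM in A2780cis (log2 fold change -0.53, SE 0.08, adjusted p = 1.8e-06). A second copy of U2AF1 in the assembly used took 49.6% to 49.8% of the reads of both in every group, so the levels printed for U2AF1 cover only its own share.

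The tri-snRNP supplied 7 falls in A2780 and 6 in A2780cis among 9 members, with no rise. PRPF6, which bridges U5 and U4/U6, fell from 72.0, 75.0 and 81.2 to 41.1, 44.2 and 43.3 CPM and from 65.7, 73.9 and 78.2 to 32.3, 34.2 and 35.3 CPM (-0.83 and -1.10). PRPF8, the U5 protein at the centre of the catalytic core, had 571, 630.0 and 670.1 against 335, 387 and 368 CPM in A2780 and 543, 673 and 678 against 345, 410.2 and 320.3 CPM in A2780cis (-0.78 and -0.82). Neither gene had overlapping groups. PRPF38B, a relative of the activation factor PRPF38A, had 122, 117 and 103 CPM in untreated and 98.3, 87.8 and 81.7 CPM in treated A2780 (log2 fold change -0.35, SE 0.10, adjusted p = 0.0056). In A2780cis it had 63.1, 64.7 and 59.7 CPM untreated and 27.2, 29.9 and 24.3 CPM treated (log2 fold change -1.20, SE 0.11, adjusted p = 7.2e-10), a deeper fall from a lower start (difference -0.85 (SE 0.15, adjusted p = 2.3e-04)). PRPF38A was called in no treatment comparison. PRPF19, the ubiquitin ligase at the centre of the PRPF19 complex, fell from 166, 174 and 199.9 to 118, 117 and 109 CPM and from 148, 172 and 174 to 91.6, 93.4 and 90.6 CPM (-0.65 and -0.84).

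The small proteins of the Sm and U6 LSM rings held 7 of the 10 rises in A2780cis. Of 8 Sm proteins, 2 fell and none rose in A2780, while 2 fell and 3 rose in A2780cis. SNRPB (SmB/B′) fell from 288, 274 and 293 to 151, 158 and 163 CPM in A2780 (log2 fold change -0.85, SE 0.12, adjusted p = 1.8e-06) and from 393, 401 and 449.7 to 299, 259.9 and 340.0 CPM in A2780cis (log2 fold change -0.47, SE 0.12, adjusted p = 0.0016). SNRPD1 (SmD1) fell from 215, 218 and 200.2 to 141, 118 and 114 CPM and from 197, 164 and 160.1 to 120.4, 92.5 and 121 CPM (-0.76 and -0.64). SNRPD2 (SmD2) did the reverse in A2780cis, with 218, 183 and 189.8 CPM in untreated and 353, 258 and 409 CPM in treated libraries (log2 fold change 0.79, SE 0.14, adjusted p = 3.2e-05). In A2780 SNRPD2 had 257, 247 and 258 and 255, 239.8 and 249.6 CPM, overlapping groups (-0.03), and the difference between the lines was 0.82 (SE 0.20, adjusted p = 0.0041). SNRPF and SNRPG, the other rises, had 0.39 and 0.35 in A2780cis. Untreated A2780cis had 147, 128 and 191 CPM of SNRPG at 6 h and 125, 105 and 102 CPM at 12 h. Treated A2780cis had 149, 109 and 164 CPM of SNRPG at 12 h. SNRPN, the imprinted near-copy of SNRPB, had 76.0, 80.4 and 88.3 against 74.3, 69.9 and 67.1 CPM in A2780 and 54.6, 51.5 and 57.3 against 56.0, 49.3 and 65.2 CPM in A2780cis and was called in neither line; 43.9% of its exonic bases lie in exons of other genes of the same strand, among them SNURF.

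In the U6 LSM ring, LSM3 was the only member of all 73 that rose in both lines at 12 h. Its levels were 78.8, 76.8 and 72.3 CPM in untreated and 122, 96.4 and 97.8 CPM in treated A2780 (log2 fold change 0.47, SE 0.14, adjusted p = 0.0048), and 61.1, 48.8 and 44.7 against 93.6, 68.6 and 95.3 CPM in A2780cis (log2 fold change 0.73, SE 0.14, adjusted p = 5.8e-05). The groups did not overlap in either line. At 6 h LSM3 had 100.6, 125.7 and 87.6 CPM in untreated and 98.6, 108.9 and 114 CPM in treated A2780. Its untreated level in A2780 was called lower at 12 h than at 6 h. The part of this untreated change in the 12 h rise was not tested. LSM4, LSM5 and LSM7 rose in A2780cis (0.40, 0.33 and 0.32), with -0.15, 0.01 and -0.13 in A2780. Untreated A2780cis had 80.8, 82.5 and 97.0 CPM of LSM5 at 6 h and 74.9, 63.6 and 57.2 CPM at 12 h. Treated A2780cis had 93.5, 72.5 and 79.7 CPM of LSM5 at 12 h. LSM7 was instead called higher at 12 h than at 6 h in untreated A2780cis. LSM2 fell in A2780cis, from 40.6, 40.1 and 41.5 to 31.2, 23.3 and 35.2 CPM (log2 fold change -0.45, SE 0.12, adjusted p = 0.0032), and had 37.2, 46.9 and 47.3 and 46.5, 46.5 and 45.4 CPM in A2780 (0.07, not called, its sign changing without A2780 untreated replicate 1). A2780cis treated replicate 2 lay below the other 2 treated libraries for both rings: the 8 Sm genes summed to 1510, 1178 and 1672 CPM in that group and the 7 LSM genes to 458, 389 and 488 CPM. At 6 h untreated A2780 replicate 2 was high for the Sm genes, which summed to 1564, 1969 and 1567 CPM in its group.

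**Figure D3:**
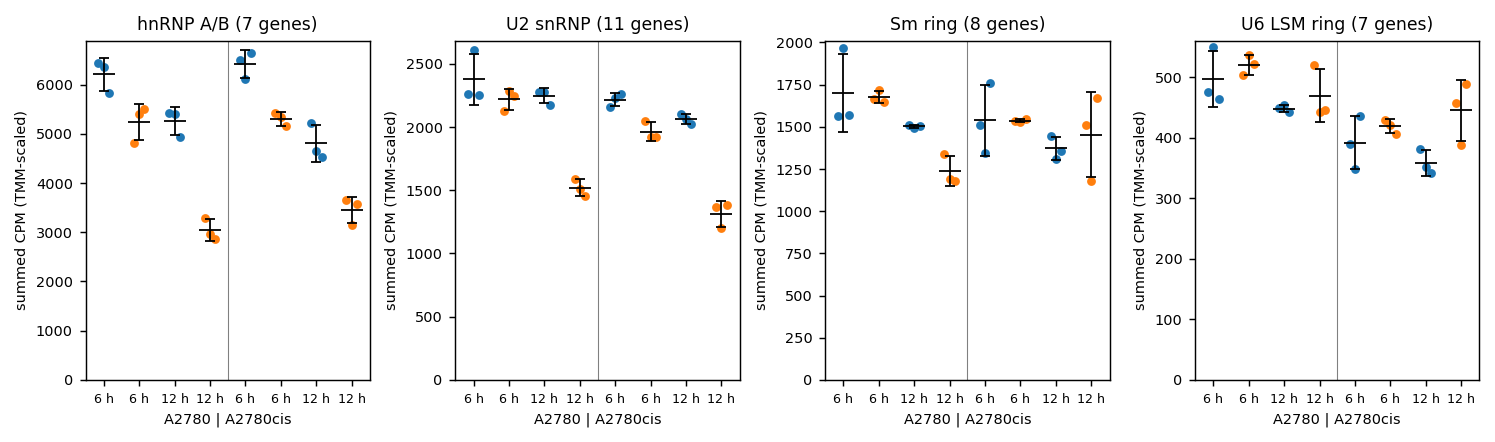
Summed TMM-scaled CPM (y axis) of 4 classes in each library by group (x axis, A2780 left and A2780cis right of the line; blue untreated, orange treated; bars mean and SD of 3 libraries). The hnRNP A/B and U2 snRNP sums lie lowest in both treated 12 h groups, while in A2780cis at 12 h the treated Sm sums, 1178 to 1672 CPM, lie on both sides of the untreated ones and the treated U6 LSM sums, 389 to 488 CPM, lie above them.

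Outside the spliceosomal rings, LSM14A, a P-body protein, fell from 175, 176 and 166 to 118, 102 and 96.6 CPM in A2780 (log2 fold change -0.71, SE 0.09, adjusted p = 3.8e-07) and from 153, 147 and 138 to 64.5, 62.4 and 51.4 CPM in A2780cis (log2 fold change -1.30, SE 0.09, adjusted p = 1.2e-11). LSM12 fell from 95.6, 97.3 and 104 to 72.7, 61.8 and 63.2 CPM and from 86.6, 82.4 and 80.6 to 58.6, 46.6 and 48.3 CPM (-0.59 and -0.70), with 19.1% of the reads of LSM12 and its pseudogene counted at the pseudogene. Both genes lay lower in every treated than in every untreated library of their line. LSM1, which sets the cytoplasmic decay ring apart from the U6 ring, fell in A2780 (-0.33) and had 0.02 in A2780cis. It shares 38.0% of its exonic bases with genes on the opposite strand. LSM10 of the U7 snRNP, which forms the 3′ ends of histone mRNA, was called in no treatment comparison.

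The response at 12 h was tested for a difference between the lines. The change was more negative in A2780cis for 12 of the 73 members, where 14.0% of all genes were called in that direction, and more positive for 10, where 9.7% were. Of the 13881 tested protein-coding genes, 18.0% were more negative and 9.33% more positive. The former included HNRNPDL, PRPF38B, LSM14A, SF3A1, U2AF1, LSM11, HNRNPAB, SF3B2, LSM2, HNRNPUL1 and HNRNPD, with differences between -1.03 and -0.41. The 10 were SNRPD2, SNRPF, SNRPG, LSM4, SF3B5, SF3B6, HNRNPA1 with its retrocopies HNRNPA1L2 and HNRNPA1L3, and HNRNPK, with differences from 0.35 to 0.82. With each of the 12 libraries left out in turn, LSM2 kept its call in 5 fits (highest adjusted p = 0.094), HNRNPUL1 in 4 (0.1) and HNRNPAB in 11 (0.056). All 8 groups share 1 estimate of the spread here; with the 4 groups of 12 h alone, 6 were more negative. Leaving out 1 library gave 7 to 13 more negative and 5 to 15 more positive members, the fewest more negative without A2780 treated replicate 1 or A2780cis untreated replicate 2 and the fewest more positive without A2780cis untreated replicate 2 or treated replicate 1 or 3. There were 6 more positive members without A2780 untreated replicate 1 or 2 or treated replicate 2 or A2780cis untreated replicate 3. With library size scaling the counts were 17 and 7, and all genes split into 3900 more negative and 1443 more positive, against 2826 and 1964 with TMM.

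**Figure D4:**
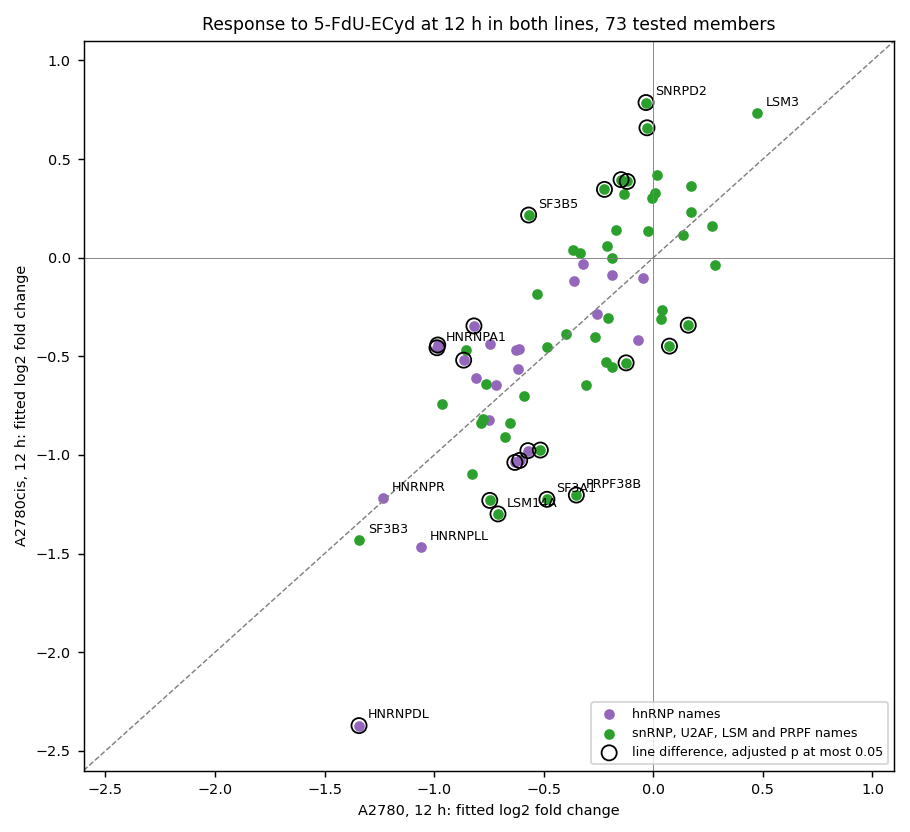
Fitted log2 fold change at 12 h in A2780 (x axis) and A2780cis (y axis) for the 73 tested members, hnRNPs in purple and the others in green, with a ring where the difference between the lines had an adjusted p of at most 0.05. HNRNPDL lies lowest on the A2780cis axis and below the dashed line of equal change, SF3B3 and HNRNPDL lie together at -1.34 on the A2780 axis, and SNRPD2 lies near 0 in A2780 and at 0.79 in A2780cis.

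After 6 h fewer members had changed. In A2780, 15 fell and 4 rose, where 13.4% of all genes fell and 16.0% rose, 29.4% in all. In A2780cis, 25 fell and 3 rose, against 16.3% and 14.4%, or 30.7% for both. Of the 15 members that fell in A2780 all were also called lower at 12 h, and of the 25 in A2780cis 24 were, the exception being PRPF18. In all 4 comparisons 12 members fell: HNRNPR, HNRNPDL, HNRNPU, HNRNPF, HNRNPA3, HNRNPA1 and its retrocopies HNRNPA1L2 and HNRNPA1L3, PRPF38B, PRPF4, LSM12 and LSM14A. HNRNPA1 and its retrocopies share reads. The shares of all genes lower at both times or in all 4 comparisons were not counted, so these counts have no background. The 6 h calls of HNRNPA1, HNRNPA1L3, HNRNPF, PRPF38B and LSM14A were lost in both lines in some fits that left out a single library. The counts depended on single libraries. In A2780, 7 fell without untreated replicate 1 and 6 without treated replicate 1, only 1 member rose without either of these and 2 without treated replicate 2, and without untreated replicate 2 the median of the members changed from -0.06 to 0.07. In A2780cis, 12 fell without treated replicate 2 or 3 and 1 rose without untreated replicate 2 or treated replicate 3. Scaled by library size alone, 10 fell and 12 rose in A2780, and in A2780cis 14 fell and 7 rose while all genes split into 3782 rises and 2373 falls, against 2917 and 3295 with TMM. Of the called 6 h values of the 34 genes named by rule, 6 of 16 in A2780 and 9 of 20 in A2780cis kept their call without any single library.

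The early falls that kept their call were led by HNRNPR and HNRNPDL. HNRNPR had 452, 428 and 393 CPM in untreated and 245, 283 and 284 CPM in treated A2780 at 6 h, and 463, 499 and 475 against 324, 316 and 299.8 CPM in A2780cis (-0.65 (SE 0.09, adjusted p = 1.0e-05) and -0.61 (SE 0.09, adjusted p = 1.8e-05)). HNRNPDL had 441, 419 and 409.6 against 262, 284 and 296 CPM in A2780 and 470.1, 501 and 513 against 339.8, 305 and 299.7 CPM in A2780cis (-0.59 (SE 0.09, adjusted p = 2.6e-05) and -0.65 (SE 0.09, adjusted p = 5.8e-06)). Treated and untreated libraries of both genes were already apart at 6 h. HNRNPU fell from 1243 ± 54.6 to 934 ± 51.3 CPM in A2780, and A2780cis went from 1305 ± 118 to 909.9 ± 54.2 CPM (-0.41 and -0.52; mean ± SD, n = 3). LSM12 fell with log2 fold changes of -0.31 and -0.59. HNRNPH2 fell in A2780 (-0.53), and HNRNPC (-0.43), HNRNPLL (-0.45), PRPF6 (-0.50), HNRNPA3 (-0.35) and HNRNPAB (-0.31) in A2780cis.

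Some members were called up at one time and down at another, each against untreated cells of the same time. The untreated levels of U2AF2, SNRPB and SF3B4 were themselves called higher at 12 h than at 6 h in both lines. In A2780cis at 12 h, U2AF2 had 234, 283 and 304 CPM in untreated and 199.9, 225 and 203 CPM in treated cells. The part of the untreated change in these calls was not tested. U2AF2 rose at 6 h, from 132, 204 and 202 to 297, 264 and 212 CPM in A2780 (log2 fold change 0.52, SE 0.14, adjusted p = 0.0069) and from 169, 155 and 162 to 189, 202 and 245 CPM in A2780cis (log2 fold change 0.39, SE 0.14, adjusted p = 0.038), and fell at 12 h in both lines. The rise was not called without A2780 untreated replicate 1 or treated replicate 1, nor in 5 of 6 fits of A2780cis that left out 1 library. SNRPB had 186, 253 and 242 CPM in untreated and 333, 293 and 245 CPM in treated A2780 at 6 h (log2 fold change 0.36, SE 0.12, adjusted p = 0.029; lost without untreated replicate 1 or treated replicate 1 or 2), and in A2780cis 328, 288 and 364 against 333, 356 and 393 CPM (0.14). SF3B4, an SF3b subunit, rose in A2780 at 6 h, from 64.6, 91.4 and 82.4 to 111, 98.1 and 89.8 CPM (log2 fold change 0.33, SE 0.12, adjusted p = 0.046), a call that 4 of 6 fits without 1 library lost, and fell in A2780cis at 12 h, from 98.9, 119 and 121 to 90.7, 94.9 and 88.5 CPM (log2 fold change -0.30, SE 0.12, adjusted p = 0.032; lost without untreated replicate 2 or 3 or treated replicate 3). In A2780 at 12 h SF3B4 had 100.3, 114 and 125 against 85.9, 106 and 102 CPM and was not called.

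LSM11, the U7 snRNP partner of LSM10, was the only member with a called difference between the lines at 6 h (-0.75 (SE 0.14, adjusted p = 0.0029); 2.38% of all genes were called more negative in A2780cis and 0.692% more positive, 3.07% in all). It rose in A2780 from 24.6, 22.0 and 21.9 to 33.1, 31.8 and 34.1 CPM (log2 fold change 0.53, SE 0.10, adjusted p = 2.5e-04) and had 21.4, 20.8 and 17.7 against 16.6, 18.6 and 16.2 CPM in A2780cis (-0.22, not called). At 12 h LSM11 had 18.3, 19.4 and 18.2 against 21.2, 20.6 and 20.7 CPM in A2780 (0.16, not called) and fell in A2780cis from 13.7, 13.4 and 15.1 to 12.1, 11.3 and 9.97 CPM (log2 fold change -0.34, SE 0.10, adjusted p = 0.006). The 6 h rise of LSM11 kept its call without any single library. Without A2780 untreated replicate 2 the line difference at 6 h was called more negative for 2 members, and without A2780cis untreated replicate 1 for 3. With DESeq2 the line difference at 6 h was called for 3 more negative members and 1 more positive one.

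**Figure D5:**
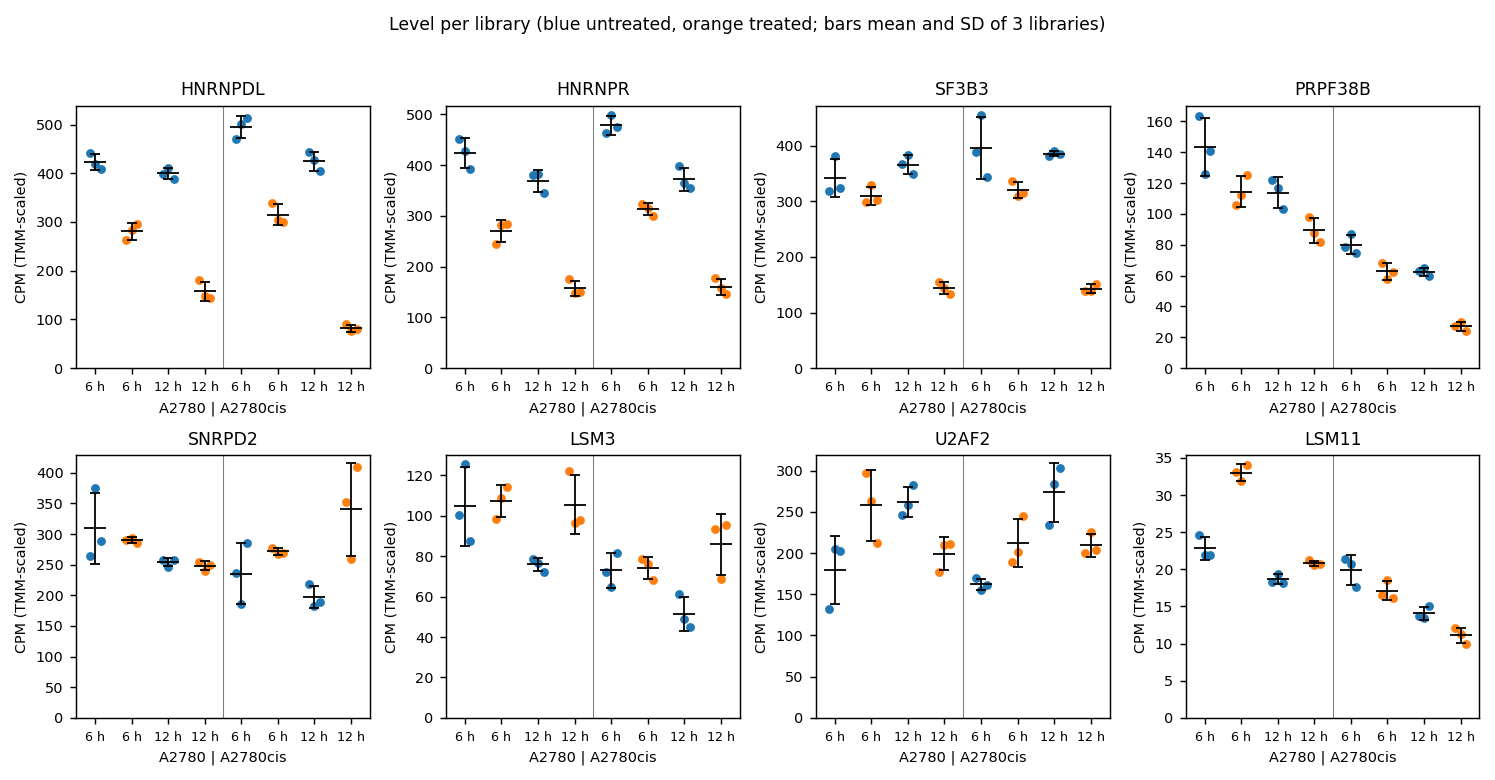
TMM-scaled CPM (y axis) of 8 members in each of the 24 libraries by group (x axis, A2780 left and A2780cis right of the line; blue untreated, orange treated; bars mean and SD of 3 libraries). HNRNPDL, HNRNPR and SF3B3 are lowest in the treated 12 h groups, LSM3 is higher in treated than in untreated cells at 12 h, and LSM11 is highest in treated A2780 at 6 h.

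Between 6 h and 12 h the response of 34 members became more negative in A2780 and of none more positive, where 13.0% and 10.7% of all genes did; in A2780cis it was 26 and 3, against 13.6% and 10.3%. SNRPB changed most in A2780 (-1.21) and HNRNPDL in A2780cis (-1.72). Untreated cells also moved between these times: 19 members were lower and 18 higher at 12 h than at 6 h in A2780, where 10.3% of all genes were lower and 16.6% higher (26.9% in all), and 34 lower and 14 higher in A2780cis, against 21.9% and 18.0%. SF3A2 rose most, by 0.89 (SE 0.24, adjusted p = 0.01) in A2780 and 1.48 (SE 0.24, adjusted p = 8.7e-05) in A2780cis. Of these untreated counts, the 19 became 3 without A2780 untreated 12 h replicate 3, 6 without 6 h replicate 2, 8 without 6 h replicate 1 and 11 without 12 h replicate 2, the 18 became 4 without 6 h replicate 1 and 8 without 12 h replicate 3, and the 34 and 14 became 18 and 9 without A2780cis untreated 12 h replicate 3. Library size scaling gave 16 lower and 21 higher in A2780 and 15 lower and 20 higher in A2780cis, with all genes split into 1505 lower and 3851 higher and into 1598 and 4686, against 2081 and 3354 and 4433 and 3650 with TMM. The 3 more positive responses of A2780cis became 0 without treated 12 h replicate 3, 1 without untreated 6 h replicate 3 and 7 without treated 12 h replicate 2; in A2780 the split of all genes by the change of the response turned from 2633 more negative and 2160 more positive to 1431 and 3299 under library size scaling, and that of the members to 23 and 4. In A2780, the response of 1 member became more positive without untreated 6 h replicate 3 or treated 12 h replicate 2.

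Without the drug, A2780cis at 12 h had lower levels than A2780 for 23 members and higher for 5, where 27.5% of all genes were lower and 25.4% higher. PRPF38B was 63.1, 64.7 and 59.7 CPM in A2780cis and 122, 117 and 103 CPM in A2780 (log2 fold change -0.86, SE 0.10, adjusted p = 8.8e-08). HNRNPH2 was 66.6, 57.1 and 53.4 against 107, 105 and 90.7 CPM (log2 fold change -0.77, SE 0.10, adjusted p = 1.7e-07) and SNRPN 54.6, 51.5 and 57.3 against 76.0, 80.4 and 88.3 CPM (log2 fold change -0.58, SE 0.10, adjusted p = 1.3e-05). The lines did not overlap for any of these. All 3 were also lower at 6 h, with log2 fold changes of -0.84, -0.63 and -0.33. LSM3 was lower too (-0.56 at 12 h), and SNRPB (0.54) and HNRNPH3 (0.39) were higher. At 6 h, 15 members were lower and 7 higher, against 22.9% and 25.0% of all genes, 47.9% in all; scaling by library size alone gave 28 lower and 4 higher. The 12 h count of 23 became 12 without A2780 untreated replicate 2, 13 without A2780cis untreated replicate 2 and 11 without its replicate 3, and the 5 became 3 without A2780 replicate 2 or 3 or A2780cis replicate 1 or 2. At 6 h the 15 became 7 without A2780 replicate 2, 9 without A2780cis replicate 1 and 8 without its replicate 2, and the 7 became 4 without A2780 replicate 1 and 3 without its replicate 3.

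The levels themselves spanned a wide range. Per kilobase of annotated exon, untreated A2780 at 12 h had 318 ± 16.7 CPM of HNRNPA1, 203 ± 5.08 of HNRNPK, 178 ± 1.23 of HNRNPC, 176 ± 4.30 of SNRPD2 and 165 ± 4.99 of HNRNPAB, and at the other end 2.42 ± 0.0949 of PRPF40B and 1.39 ± 0.184 of PRPF18 (SD, n = 3). HNRNPC and SNRPD2 did not differ beyond their spread. HNRNPA1 came first in untreated A2780cis as well, with 276 ± 25.7 CPM per kilobase. In the treated groups of 12 h SNRPD2 had the highest mean per kilobase, 172 ± 5.30 against 161 ± 9.75 for HNRNPA1 in A2780 and 236 ± 52.9 against 201 ± 26.3 in A2780cis. The spreads overlapped in both lines. The length used covers all annotated exons of a gene rather than the transcripts present, so ranks between genes also depend on the annotation.

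Across the 73 members, the change at 12 h ran against the level: Spearman's rho of the log2 fold change with the mean log2 CPM was -0.49 in A2780 and -0.35 in A2780cis, and -0.33 and -0.32 across the 13881 protein-coding genes. With the exonic length rho was -0.28 and -0.49 over the members and -0.21 and -0.32 over the protein-coding genes. These are descriptions across genes of the same libraries, which are not independent replicates.

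Other splicing genes were counted from lists of known parts. Of 72 other spliceosome proteins, 39 fell and 7 rose in A2780 at 12 h and 41 fell and 7 rose in A2780cis, with medians of -0.29 and -0.52; of all genes 26.1% fell and 28.6% rose in A2780 and 28.9% and 31.0% in A2780cis. Of 30 factors that assemble or transport snRNPs, 16 fell and 2 rose in A2780 and 18 fell and 2 rose in A2780cis, with medians of -0.26 and -0.41. SYNCRIP, the relative of HNRNPR, fell with log2 fold changes of -1.31 (SE 0.10, adjusted p = 6.0e-11) and -1.58 (SE 0.10, adjusted p = 1.8e-12), the intron-binding helicase AQR with -1.20 (SE 0.10, adjusted p = 1.8e-10) and -1.40 (SE 0.10, adjusted p = 8.9e-12), and RBM25 with -0.74 (SE 0.10, adjusted p = 9.1e-07) and -1.24 (SE 0.10, adjusted p = 1.4e-10). GEMIN5, the snRNA-binding part of the SMN complex, fell with -1.55 (SE 0.08, adjusted p = 8.0e-14) and -1.81 (SE 0.08, adjusted p = 5.2e-15), the exporter XPO1 with -1.17 (SE 0.10, adjusted p = 6.8e-10) and -1.46 (SE 0.10, adjusted p = 1.1e-11), and the cap-binding NCBP1 with -0.89 (SE 0.09, adjusted p = 1.3e-08) and -0.85 (SE 0.09, adjusted p = 2.3e-08). At 6 h, 13 of the 72 fell and 11 rose in A2780 and 18 fell and 4 rose in A2780cis, and of the 30 factors 8 fell and 1 rose and 11 fell and 3 rose. The shares of all genes at 6 h were 13.4% lower and 16.0% higher in A2780 and 16.3% and 14.4% in A2780cis, and the 13 falls made up 18.1% of the 72.

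The snRNAs around which these proteins assemble varied widely between libraries of the same group. Of 25 snRNA genes listed, 14 were tested, and 13 of these were higher in treated than in untreated A2780cis at 12 h, 3 in A2780 and none lower. Of all genes 31.0% were higher and 28.9% lower in A2780cis, and 28.6% and 26.1% in A2780. RNU1-1, a U1 gene, had 0.0482, 0.225 and 0.0540 CPM in untreated and 5.53, 3.50 and 6.17 CPM in treated A2780cis at 12 h, but 0.198, 6.14 and 3.49 CPM in untreated and 5.61, 0.489 and 0.146 CPM in treated A2780. Summed over the listed genes, replicates of 1 group went from 3.96 to 39.9 CPM in untreated A2780 at 12 h and from 4.66 to 78.6 CPM in treated A2780cis at 6 h. These levels were low, the U1 copies are near identical and share reads, and which libraries were high did not follow the treatment in A2780. In treated A2780cis at 6 h the sums were 74.6, 78.6 and 4.66 CPM, so not every treated library was high there.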

How the data were processed

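RNA was sequenced from 24 libraries, 3 for each of 8 groups of line, treatment and time. According to the protocols, stranded total RNA libraries were sequenced on a NextSeq500, reads were trimmed with Trimmomatic and aligned with STAR 2.5.2b to GRCh38, and features were counted with featureCounts. The deposited values are expected counts per gene, since the authors allowed a read to count for several features and split reads with several alignments into fractions. Between 9.50% and 12.8% of the values were not whole, and all were rounded. The labels and the methods differ on single or paired reads, and the strand setting of the counting is not given in the sources used here, so reads of antisense partners cannot be told apart. For 8 members over 10% of the exonic bases lie in exons of a gene on the other strand.

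Gene types and coordinates came from GENCODE release 44, which matched 56948 of 63299 IDs, and promoters from RefSeq (GRCh38.p14). The edgeR 4.0.16 quasi-likelihood test was run in R 4.3.3 with TMM factors, 1 coefficient for each group (16 residual degrees of freedom) and a filter at a count of 10 and a total of 15, which left 20240 genes. Adjusted p-values are Benjamini-Hochberg values over all of them. Differences between lines and times were tested as interaction terms. Tested on simulated data for A2780 at 12 h (20240 genes), this called 78 of 104 genes changed by a log2 of 1, 86 of 87 changed by 2, and 8 of 19058 unchanged ones. The simulated counts had the same fixed spread for every gene and equal group means outside the changed genes. In the real data 54.8% of all genes were called in this comparison, so the rate of false calls there cannot be read from the simulation.

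Alternatives were other size factors, library size alone, no filter, unrounded counts, a replicate block, only the compared groups, removal of lncRNA and rRNA genes, DESeq2 1.42.0 and leaving out each library. Adding the reads of processed copies to their parent gene was chosen after seeing the data. The rule for members named with values in every library at 12 h took 34: in each class with 4 or more tested members the 2 with the largest absolute change at 12 h in each line, in smaller classes 1, among called members whose mean log2 CPM was 2 or more, then the 5 with the smallest p of the 12 h interaction, the 3 with the smallest p of the untreated line difference at 12 h, and members called in opposite directions in 2 treatment comparisons. One of them is not reported here, though the counts include it. Other members named with a value were chosen after their values were seen. From the other lists the 3 leading genes were named. The members and gene lists were chosen with earlier results of these data known.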

Additional observations from a re-analysis of the deposited data

Results flagged for a closer look

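The response at 12 h differed between the lines, by a tested interaction of line and treatment (edgeR quasi-likelihood test, adjusted p at most 0.05), for the members listed here. It was more negative in A2780cis for HNRNPDL (-1.03), PRPF38B (-0.85), SF3A1 (-0.74), LSM14A (-0.59), LSM2 (-0.52), LSM11 (-0.50), HNRNPUL1 (-0.42), U2AF1 (-0.41) and HNRNPAB (-0.41). With each of the 12 libraries left out in turn, LSM2 kept this call in 5 fits, HNRNPUL1 in 4 and HNRNPAB in 11. It was more positive in A2780cis for SNRPD2 (0.82), HNRNPA1L3 (0.54) and HNRNPA1 (0.53), of which the last 2 share reads. Only members named by rule are listed here. Over all 73 tested members 12 were more negative and 10 more positive, where 14.0% and 9.7% of all genes and 18.0% and 9.33% of protein-coding genes were. At 6 h the tested difference was -0.75 for LSM11.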

How the results depend on the processing

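The counts of falls at 12 h stayed within 1.5 times under the alternatives run, lowest with library size alone (32 in A2780 and 39 in A2780cis), and with 39 to 43 falling members in A2780 and 42 to 44 in A2780cis when 1 library was left out; for the other results the cause of a shift was not tested.

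With library size alone the members gave, in A2780 at 12 h, 11 rises and a median of -0.14, in A2780 at 6 h 12 rises and a median of 0.013, and in A2780cis at 6 h 14 falls, 7 rises and a median of -0.030. It also gave 2 more negative and 1 more positive line difference at 6 h, 4 more positive changes of the A2780 response over time, 28 lower and 4 higher untreated members in A2780cis at 6 h, and 15 lower untreated A2780cis members at 12 h than at 6 h. It turned the sign of SF3B4 (0.018), SNRPD2 (0.19), SNRPN (0.0071) and U2AF1 (0.10) in A2780 at 12 h and of HNRNPH2 (0.078) in A2780cis. Without the filter there was 1 rise in A2780 at 12 h, and there were 9 falls in A2780 and 15 in A2780cis at 6 h, 2 more negative line differences at 6 h and 4 higher untreated A2780cis members at 6 h. With only the compared groups, 6 line differences at 12 h were more negative and 1 at 6 h more positive, 3 untreated members were higher in A2780cis at 6 h, and 21 untreated A2780cis members were lower at 12 h than at 6 h. Without lncRNA and rRNA genes 1 line difference at 6 h was more positive, and HNRNPH2 in A2780cis at 12 h had 0.030. DESeq2 gave 3 more negative and 1 more positive line difference at 6 h.

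Leaving out 1 library gave 1 to 3 rises in A2780 and 4 to 12 in A2780cis at 12 h. At 6 h it gave 6 to 14 falls, 1 to 6 rises and a median from -0.081 to 0.074 in A2780, and 12 to 24 falls and 1 to 3 rises in A2780cis. Line differences ranged from 7 to 13 more negative and 5 to 15 more positive at 12 h and from 1 to 3 more negative at 6 h. More positive changes over time numbered 0 to 1 in A2780 and 0 to 7 in A2780cis. Untreated members in A2780cis against A2780 ranged from 11 to 26 lower and 3 to 4 higher at 12 h and from 7 to 16 lower and 3 to 9 higher at 6 h, and untreated members at 12 h against 6 h from 3 to 20 lower and 4 to 18 higher in A2780 and from 18 to 34 lower and 9 to 16 higher in A2780cis. At 12 h the sign changed for LSM2 in A2780 (from -0.052 without untreated replicate 1 to 0.13), for HNRNPH2 in A2780cis (from -0.15 to 0.058 without untreated replicate 1, and 0.0060 without treated replicate 3) and for SNRPN in A2780cis (from -0.079 without treated replicate 3 to 0.15).

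The libraries share replicate numbers, but nothing in the labels pairs them: same-numbered libraries had correlations of their deviations from -0.25 to 0.31, and 3 of 12 correlated best with their own number. With the replicate number as a block 44 members fell and 2 rose in A2780 at 12 h and 45 fell and 11 rose in A2780cis, and at 6 h 16 fell and 4 rose and 26 fell and 3 rose. Among the values of single named genes under an alternative, 1867 kept their direction and side of the threshold, 167 lost the call, 5 gained it and 10 changed sign. With 3 libraries in a group and totals down to 11077368 counts, a change that was not called cannot be read as absent.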
